A study of Mus musculus with 14 samples.

Results

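The genes described here are 60 genes of the mitotic machinery, taken from a list of symbols and found among the 24972 genes of the expression table. The list was not drawn from fold changes, but it was chosen with earlier results of these data known. It held 13 entry kinases, cyclins and phosphatases, 10 genes of the checkpoint and of anaphase, 12 of the kinetochore and the chromosomal passenger complex, 10 kinesins, 7 spindle-associated and cytokinesis genes, and 8 genes of chromosome and nuclear structure. All 60 passed the filter on low values, which kept the 12711 genes whose mean over the 14 libraries reached 10 normalized counts, so none was lost through its level.

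RNA was sequenced from 4 genotypes of mouse hepatocellular carcinoma cells. The cells came from diethylnitrosamine-induced liver tumours of mice with floxed Acly alleles (Acly f/f). Acly encodes ATP-citrate lyase and Acss2 encodes acyl-CoA synthetase short-chain family member 2, the enzymes that make acetyl-CoA outside the mitochondria from citrate and from acetate. WT cells (4 libraries, line D42V) kept both enzymes. ACLY KO cells (4 libraries, line D42C4V) had lost Acly through adenoviral Cre and were a single-cell clone. Both of these lines carried an empty LentiCRISPR v2 vector. ACSS2 KO cells (3 libraries, line D42 Sg2-3) and the double knockout DKO1 (3 libraries, line D42C4 Sg2-2) were single-cell clones with a guide against the first exon of Acss2, DKO1 in the ACLY KO background. All lines had been through puromycin selection and were held for 24 hours in DMEM with 10% calf serum before RNA extraction. Because each knockout genotype is 1 clone, genotype and clone cannot be told apart, and the libraries of a genotype are samples of 1 line, so p-values measure the spread between these samples only.

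Mitosis is driven by cyclin-dependent kinase 1 bound to A- and B-type cyclins, together with the Polo-like and Aurora kinases. The spindle, built by kinesin motors and microtubule-associated proteins, attaches to chromosomes at kinetochores, and the spindle assembly checkpoint holds back the anaphase-promoting complex (APC/C) until every chromosome is attached. In proliferating cells many of these genes are transcribed together late in the cell cycle, through CHR and CCAAT promoter elements bound by the DREAM and B-Myb-MuvB complexes and by NF-Y. In bulk RNA, fewer cells in mitosis and less RNA per mitotic cell cannot be told apart.

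The promoters of these genes shared letters that the choice of the list did not use. Of the 60 genes, 50 had a RefSeq promoter (GRCm38.p6, 250 bases before to 50 after the start), and 35 of these 50 (70%) held the CHR core TTTGAA on either strand, against 20.2% of the 27025 genes with a promoter. CCAAT on either strand was found in 36 of the 50 (72%), against 41.1% of all genes, and both motifs in 29 (58%), against 8.97%. Neither motif was found in 8 of the 50 (16%), against 47.7% of all genes. Some genes have several promoters, and per promoter the CHR core was in 69.1% of 55 promoters of these genes and 17.9% of all 32851. Below are the 120 bases before the RefSeq start of 7 genes, chosen after their values were seen. Kif11, Top2a and Espl1 were lower in DKO1 than in each other genotype, and Ccnf and Cdc20 lower in each knockout than in WT. Cdk1 had no call with all 14 libraries, and Pttg1 went the other way. Capitals mark the CHR core (TTTGAA or TTCAAA) and CCAAT (or ATTGG), and no base lies in both.
Kif11 (chr19:37376262-37376381, plus strand): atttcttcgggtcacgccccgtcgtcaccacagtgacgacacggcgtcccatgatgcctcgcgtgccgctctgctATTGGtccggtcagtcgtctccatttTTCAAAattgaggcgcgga
Top2a (chr11:99024190-99024309, minus strand): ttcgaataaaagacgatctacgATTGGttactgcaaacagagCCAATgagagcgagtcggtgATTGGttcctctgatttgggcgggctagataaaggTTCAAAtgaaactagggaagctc
Espl1 (chr15:102296173-102296292, plus strand): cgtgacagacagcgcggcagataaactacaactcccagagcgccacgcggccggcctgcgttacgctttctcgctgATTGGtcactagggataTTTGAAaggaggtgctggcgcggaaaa
Ccnf (chr17:24251410-24251529, minus strand): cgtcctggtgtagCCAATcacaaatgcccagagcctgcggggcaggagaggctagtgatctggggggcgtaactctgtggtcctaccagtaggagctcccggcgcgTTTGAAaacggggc
Cdc20 (chr4:118437344-118437463, minus strand): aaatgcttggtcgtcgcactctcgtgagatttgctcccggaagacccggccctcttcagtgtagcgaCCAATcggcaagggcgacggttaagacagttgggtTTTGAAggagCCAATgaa
Cdk1 (chr10:69352913-69353032, minus strand): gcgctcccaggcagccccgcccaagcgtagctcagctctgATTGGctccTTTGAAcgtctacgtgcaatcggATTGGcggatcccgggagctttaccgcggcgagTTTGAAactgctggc
Pttg1 (chr11:43425982-43426101, minus strand): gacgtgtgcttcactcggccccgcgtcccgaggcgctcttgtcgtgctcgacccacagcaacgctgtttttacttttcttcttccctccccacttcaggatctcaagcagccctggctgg
The Cdk1 window holds 2 CHR cores and 2 CCAAT boxes, Top2a 1 and 3, and Pttg1 none of either. A match is a string of letters and does not show that a factor binds there.

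The targeted genes were read first, as a check on the labels. Acly averaged 6050 ± 423 normalized counts in WT (SD, n = 4) and 5684 ± 124 in ACSS2 KO (n = 3), against 1001 ± 56.1 in ACLY KO (n = 4) and 946 ± 12.9 in DKO1 (n = 3), with no overlap between the groups with and without the floxed allele deleted. Acss2 averaged 237 ± 11.5 in WT and 132 ± 4.88 in ACSS2 KO, but 718 ± 56.7 in ACLY KO and 535 ± 69.1 in DKO1. The Acss2 transcript of DKO1 was therefore above that of WT (log2 fold change 1.16 ± 0.0939 SE, limma adjusted p = 3.6e-07) and below that of ACLY KO (-0.43, adjusted p = 0.0044). A guide acts on the gene's DNA, so its transcript level is a weak check of that label. Keratins 8 and 18 of the liver epithelium were high, while Apoa1 and Cps1 were at or near 0 in each genotype. Ttr averaged 31.7 normalized counts in ACSS2 KO against 1.78 in WT, 4.59 in ACLY KO and 6.08 in DKO1. The liver regulator Hnf4a averaged 172 in WT, while ACSS2 KO had 39.8, ACLY KO 28.7 and DKO1 22.4. Of 12 hepatocyte and liver epithelium markers, 5 reached a mean of 10 over the 14 libraries, and the 12 summed to 48020 to 65040 in WT, while ACSS2 KO had 41020 to 44010, ACLY KO 34680 to 37870 and DKO1 25960 to 45200. Like most of the mitotic genes, this sum was lower in each knockout than in WT. It came mostly from Krt8 and Krt18, which averaged 26051 and 27537 normalized counts in WT, and other markers did not all fall. Afp was higher in DKO1 (mean 210) and ACLY KO (127) than in WT (37.0), with 34.3 for ACSS2 KO. Alb was higher in ACSS2 KO (134) than in WT (31.4), while DKO1 had 11.3 and ACLY KO 23.4. The summed level of 6 fibroblast and stellate cell markers was 617.7 to 728.6 in WT, 2933 to 3297 in ACLY KO, 1432 to 1487 in ACSS2 KO and 1225 to 1519 in DKO1, with 5 of the 6 at a mean of 10 or more and Lum at 0 in WT. The genes behind these sums differed by genotype. Col1a1 averaged 2454 in ACLY KO, against 428 in WT, 523 in ACSS2 KO and 477 in DKO1. Dcn averaged 820 in ACSS2 KO against 154 in WT. Col3a1 averaged 587 in DKO1 and 401 in ACLY KO, against 80.6 in WT and 68.4 in ACSS2 KO. Of 6 leukocyte and endothelium markers, 2 reached a mean of 10. The sum of the 6 was 49.61 to 83.51 in WT, 138.9 to 173.7 in ACLY KO, 37.25 to 60.18 in ACSS2 KO and 128.3 to 174.7 in DKO1. Adgre1 and Clec4f were at 0 in WT and DKO1. The part of these markers in the results below was not tested.

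The libraries summed to between 23565707 and 26946164 normalized counts, and since these values are already scaled, read depth per library is not known from them. WT replicate 2, ACLY KO replicate 4, ACSS2 KO replicate 1 and DKO1 replicate 4 stood apart in their own groups: within each, a gene's deviation from its group mean fell with the length of its transcript (correlation across 12608 genes of -0.62, -0.60, -0.55 and -0.71), and in the other 10 libraries that correlation was between 0.05 and 0.67. Genes are not independent replicates, so these are descriptions. Among the genes described here, the short transcripts Cenpa and Pttg1 were high and the long ones Cenpf, Mki67 and Kif14 low in DKO1 replicate 4. Birc5, with a transcript of 3334 bases, and Mad2l1, with one of 7557, were also high there. Counts of calls are therefore also given without the libraries that stood apart.

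Across the list, levels were lower in the cells without ACLY, and lowest in DKO1. WT had the highest mean for 41 of the 60 genes and DKO1 the lowest for 43, and for 39 genes the means fell from WT through ACLY KO to DKO1. In ACLY KO against WT, 35 genes were called lower and 0 higher (limma on log2(normalized count + 1), adjusted p under 0.05 over all genes tested), where 24.7% of all genes were called lower and 23.8% higher. At an unadjusted p under 0.05, 1 gene, Cdc25c, was higher. The median log2 fold change was -0.33, against -0.0067 over all genes. In DKO1 against WT, 42 genes were called lower and 1 higher, where the shares over all genes were 28.1% and 27.9%, and the median was -0.55 against 0.0035. In ACSS2 KO against WT, 14 were called lower and 2 higher, against 11% and 15.1% of all genes, with a median of -0.14 against 0.0013. With all libraries scaled to equal totals instead, which put the median of all genes at 0.11, that comparison had 5 lower and 4 higher. These 3 comparisons share the WT libraries, so their calls are not independent of each other. The groups did not overlap, with the knockout lower, for 38 genes of ACLY KO (27.2% of all genes), 27 of ACSS2 KO (19.8%) and 39 of DKO1 (24.3%). With the knockout higher there were 0, 2 and 0 (25.9%, 23% and 23.3% of all genes). The furthest from 0 of all these changes was the -1.31 of Incenp in DKO1.

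**Figure D1:**
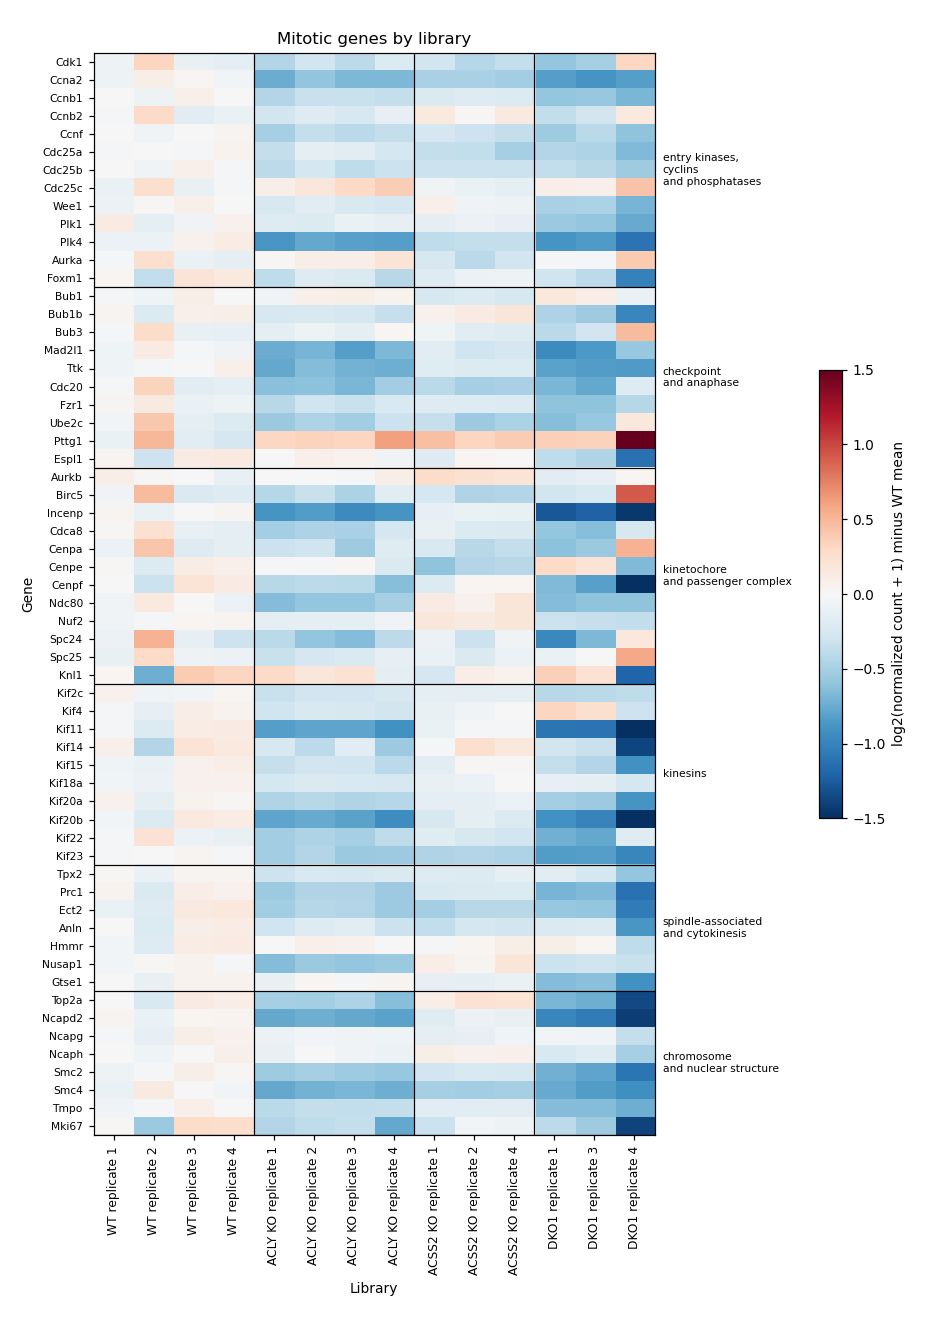
Level of each of the 60 mitotic genes (vertical axis, grouped by role) in each of the 14 libraries (horizontal axis, grouped by genotype), as log2(normalized count + 1) minus the mean of the 4 WT libraries; colours are capped at 1.5 in either direction. Blue fills most of the ACLY KO and DKO1 columns, the ACSS2 KO columns are paler, and DKO1 replicate 4 and WT replicate 2 differ from the other libraries of their groups.

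Against the single knockouts, DKO1 was lower for fewer genes. Relative to ACLY KO, 20 genes were called lower and 2 higher, against 13.6% and 14.3% of all genes, with a median of -0.12 against -0.0052. Relative to ACSS2 KO, 34 were lower and 3 higher, against 27.8% and 25.9%, with a median of -0.34 against 0.0057. The groups were apart for 24 genes lower and 2 higher in DKO1 than ACLY KO (17.2% and 17.4% of all genes), and for 38 lower and 3 higher than ACSS2 KO (30.2% and 28%). The DKO1 libraries are common to both of these comparisons and to DKO1 against WT. The 19 genes lower in DKO1 in all 3 were Ccna2, Ccnb1, Wee1, Plk1, Bub1b, Fzr1, Espl1, Incenp, Cenpf, Nuf2, Kif11, Kif23, Prc1, Gtse1, Top2a, Ncapd2, Ncaph, Smc2 and Tmpo. For 7 of these the call against ACLY KO was lost in some of the 14 fits that each left out 1 library: in 11 for Top2a, 10 for Ccna2, 9 for Cenpf, 8 for Fzr1, 5 for Prc1, and 2 each for Bub1b and Ncaph, with adjusted p up to 0.13. In the main fit, with all 14 libraries, 11 genes were called in none of the comparisons: Cdk1, Ccnb2, Bub3, Birc5, Cenpa, Cenpe, Spc24, Spc25, Knl1, Hmmr and Ncapg. Under stricter limits, an absolute log2 fold change over 1.5 with adjusted p under 0.01, 0 genes of the list were called. Those limits called 8.8% of all genes for ACLY KO, 2.42% for ACSS2 KO and 9.84% for DKO1 against WT, 2.06% and 11.3% in DKO1 against ACLY KO and ACSS2 KO, and 4.61% in the interaction described further on. Without WT replicate 2 and DKO1 replicate 4, a setting chosen after seeing the data, all calls of these 5 comparisons were kept and others were added. Added were 15 in ACLY KO against WT, 26 in ACSS2 KO against WT and 9 in DKO1 against WT. There were 11 more in DKO1 against ACLY KO and 11 in DKO1 against ACSS2 KO. Of the 11 genes with no call in the main fit, each but Hmmr was called in at least 1 comparison there. Calls there were 47 lower and 3 higher in ACLY KO against WT, 37 and 5 in ACSS2 KO, and 49 and 3 in DKO1. DKO1 against ACLY KO had 29 lower and 4 higher, and DKO1 against ACSS2 KO 42 and 6. Shares over all genes were not counted in that setting.

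**Figure D2:**
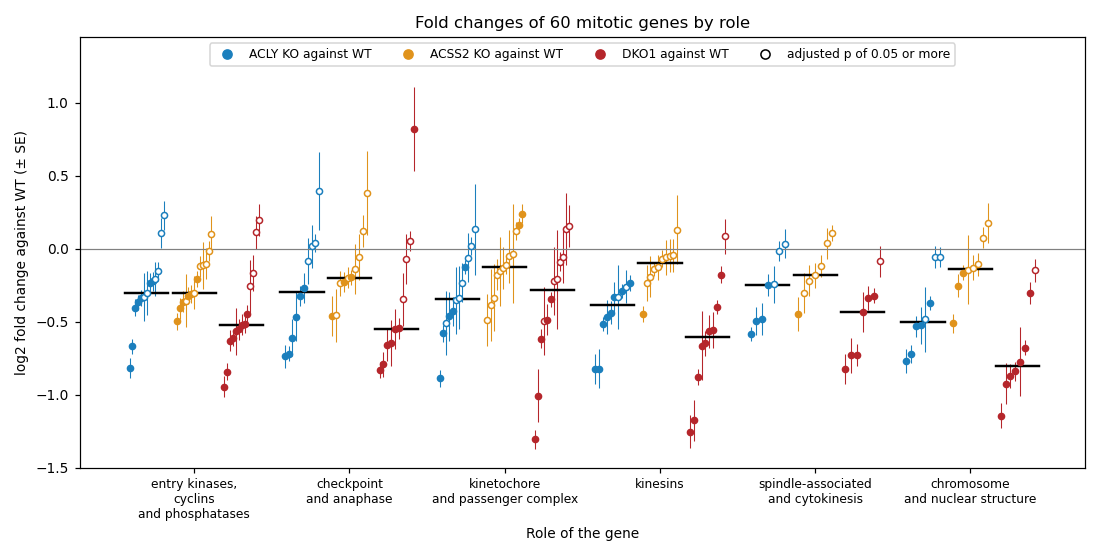
Log2 fold changes against WT (vertical axis, with SE) of the 60 mitotic genes by role (horizontal axis), for ACLY KO, ACSS2 KO and DKO1, with black bars at the medians; filled points had an adjusted p under 0.05. Medians for DKO1 lie below those for ACLY KO in every role but the kinetochore and passenger complex, and Pttg1 is the 1 filled point above 0 for DKO1.

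Among the entry kinases, cyclins and phosphatases, 7 of 13 were called lower for ACLY KO, 6 for ACSS2 KO and 9 for DKO1, each against WT, and 5 in DKO1 against ACLY KO, with 0 called higher in these 4 comparisons. Over all genes, the shares called lower in those comparisons were 24.7%, 11%, 28.1% and 13.6%. These shares are the background for the counts of each role below. Median log2 fold changes against WT were -0.30, -0.30 and -0.52. Ccna2 encodes cyclin A2, the partner of CDK2 and CDK1 in S phase and early mitosis. It stood at 10493, 11758, 11337 and 10809 normalized counts in the WT libraries, 6606, 7384, 6968 and 6943 in ACLY KO, 7939, 7901 and 7744 in ACSS2 KO, and 6277, 6013 and 6245 in DKO1. None of the 4 groups overlapped, and the order was WT, ACSS2 KO, ACLY KO, DKO1. ACLY KO had a log2 fold change of -0.67 ± 0.054 (SE) relative to WT (adjusted p = 3.4e-07), ACSS2 KO one of -0.50 ± 0.058 (adjusted p = 3.9e-05) and DKO1 one of -0.84 ± 0.058 (adjusted p = 8.9e-08). The fall in DKO1 was smaller than the sum of the falls of the single knockouts, with an interaction of 0.32 ± 0.082 (adjusted p = 0.011). The genes around Ccna2 on chromosome 3 were also lower in ACSS2 KO and in ACLY KO (median of the 50 nearest tested genes -0.30 in each). The 633 tested genes of that chromosome had a median interaction of 0.26. The part of these genes in the result was not tested.

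Ccnb1, which encodes cyclin B1, the activating partner of CDK1 at mitotic entry, kept the same order. Its WT libraries held 7040, 6669, 7396 and 6985 normalized counts and its ACLY KO libraries 5172, 5559, 5563 and 5473, with 6023, 6136 and 6083 in ACSS2 KO and 4699, 4721 and 4355 in DKO1. The 4 groups were again apart, and DKO1 had a log2 fold change of -0.25 ± 0.056 against ACLY KO (adjusted p = 0.0056) and of -0.61 against WT (adjusted p = 1.1e-06). Against WT, ACLY KO had -0.37 ± 0.052 (adjusted p = 5.8e-05) and ACSS2 KO -0.21 (adjusted p = 0.015), the latter call lost without ACSS2 KO replicate 1 or 4 (up to 0.057). Ccnb1 is the 1 gene of the list on chromosome 13, whose 480 tested genes had a median of -0.42 in ACLY KO against WT, which turns its value there to 0.048 after subtraction. Its 50 nearest genes had a median of -0.054, which leaves -0.31, and the part of the chromosome in the result was not tested. Plk4, the kinase that starts centriole duplication, had the largest falls of this role against WT in ACLY KO and DKO1, at -0.82 ± 0.069 in ACLY KO and -0.94 ± 0.075 in DKO1, from 2916 to 3363 normalized counts in WT to 1698 to 1833 and 1440 to 1731. The phosphatases Cdc25a and Cdc25b, which remove inhibitory phosphates from cyclin-dependent kinases, were lower in all 3 knockouts. In ACSS2 KO their log2 fold changes were -0.41 (adjusted p = 0.0011) and -0.32 (adjusted p = 0.0012).

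Plk1 encodes the Polo-like kinase that acts from mitotic entry to cytokinesis, and its lower level appeared mainly in DKO1. The libraries held 3540, 2960, 3140 and 3391 normalized counts in WT, 2836, 2820, 3042 and 2981 in ACLY KO, 2947, 3051 and 2981 in ACSS2 KO, and 2206, 2180 and 1922 in DKO1. The first 3 groups overlapped, and every DKO1 library lay below every other library. Log2 fold changes were -0.16 in ACLY KO (adjusted p = 0.073) and -0.12 in ACSS2 KO (adjusted p = 0.27), but -0.63 ± 0.072 in DKO1 (adjusted p = 8.5e-06), and the interaction was -0.36 ± 0.10 (adjusted p = 0.021). Leaving out ACSS2 KO replicate 2 took the adjusted p of that interaction to 0.053. Without DKO1 replicate 4, Plk1 was called lower in ACLY KO against WT (-0.16, adjusted p = 0.026). Without WT replicate 2 as well, it was called lower in both ACLY KO and ACSS2 KO against WT. Wee1, the kinase that holds CDK1 inactive, had a similar interaction of -0.31 (adjusted p = 0.032), which lost its call in 7 of the 14 fits that each left out 1 library, with adjusted p up to 0.09.

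Cdk1 itself, the central mitotic kinase, was called in no comparison of the main fit. Its values were 7145, 9438, 6997 and 6838 normalized counts in WT, 5568, 6167, 5741 and 6557 in ACLY KO, 6198, 5606 and 5861 in ACSS2 KO, and 5044, 5318 and 9323 in DKO1. The WT libraries all lay above those of ACLY KO and ACSS2 KO, while DKO1 replicate 4 stood far above the other DKO1 libraries. In DKO1 against WT the log2 fold change was -0.26 ± 0.18 (adjusted p = 0.24), and without WT replicate 2 and DKO1 replicate 4 it was -0.43 ± 0.065 (adjusted p = 3.7e-05). Aurka, the Aurora kinase of centrosomes and spindle poles, was higher in DKO1 (4115, 4080 and 5465) than in ACSS2 KO (3546, 3167 and 3459), by 0.41 ± 0.12 (adjusted p = 0.011). The genes of chromosome 2, where Aurka lies, had a median of 0.33 in that comparison, which leaves 0.087, and its 50 nearest genes 0.265, which leaves 0.149. Both ACLY KO and DKO1 had 0.11 relative to WT for Aurka (adjusted p = 0.42 each). Cdc25c was also above ACSS2 KO in DKO1 (0.30 ± 0.12, adjusted p = 0.042), a call lost in 8 of the 14 fits without 1 library, with adjusted p up to 0.14. In ACLY KO against WT its log2 fold change was 0.23 (adjusted p = 0.075). Ccnb2, which encodes cyclin B2, had values of 0.10 in ACSS2 KO and -0.17 in DKO1 and no call in the main fit. Without WT replicate 2 and DKO1 replicate 4, Ccnb2 was called higher in ACSS2 KO and lower in DKO1, each against WT.

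Foxm1 encodes the transcription factor that activates many G2 and M phase genes. It measured 6508, 4960, 7297 and 7059 normalized counts in WT, 4920, 5568, 5508 and 4789 in ACLY KO, 5601, 6028 and 6080 in ACSS2 KO, and 5211, 4850 and 3167 in DKO1. WT replicate 2 lay within the range of the knockouts. In the main fit the call against WT was made in DKO1 (-0.57 ± 0.16, adjusted p = 0.0099) and not in ACLY KO (-0.30, adjusted p = 0.12). The difference between those was not a call either (DKO1 against ACLY KO -0.27, adjusted p = 0.25). Without DKO1 replicate 4, Foxm1 was called lower in ACLY KO against WT (-0.30, adjusted p = 0.022). Without WT replicate 2 as well, it was called lower in both ACLY KO and ACSS2 KO against WT.

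**Figure D3:**
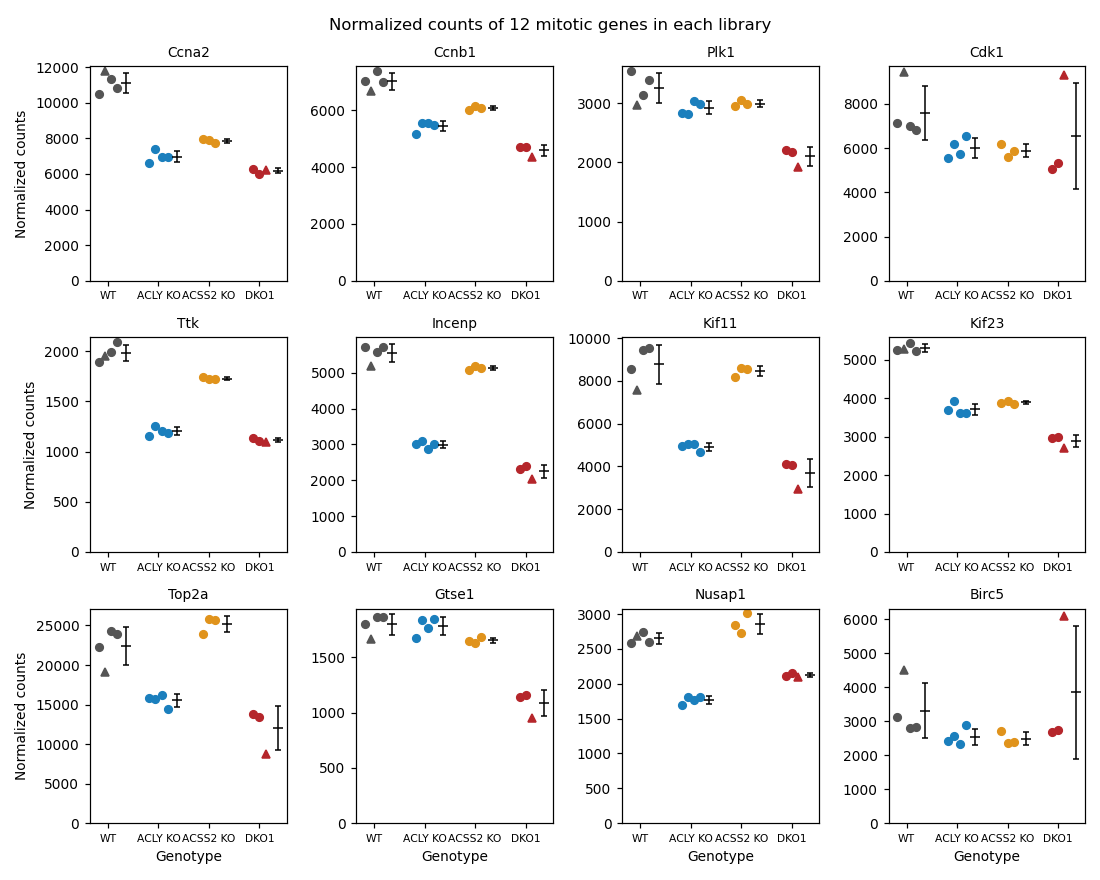
Normalized counts (vertical axes, from 0) of 12 mitotic genes in each library by genotype (horizontal axes), with the mean and SD at the right of each group; triangles mark WT replicate 2 and DKO1 replicate 4. For Plk1 and Gtse1 every DKO1 library lies below every other library. Ttk, Incenp and Kif11 are low in ACLY KO and DKO1, and for Cdk1 and Birc5 the triangle of DKO1 lies far above the other DKO1 libraries.

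Of the 10 genes of the checkpoint and of anaphase, 6 were called lower for ACLY KO, 3 for ACSS2 KO and 6 for DKO1 against WT, and 3 in DKO1 against ACLY KO. Median log2 fold changes against WT were -0.30, -0.20 and -0.55. Ttk, the MPS1 kinase that starts checkpoint signalling at unattached kinetochores, stood at 1896, 1954, 1990 and 2087 normalized counts in WT and at 1159, 1257, 1208 and 1189 in ACLY KO. It stood at 1744, 1719 and 1719 in ACSS2 KO and at 1134, 1108 and 1097 in DKO1. The cells without ACLY were well below the others, at -0.72 ± 0.049 for ACLY KO (adjusted p = 7.7e-08) and -0.83 ± 0.053 for DKO1 (adjusted p = 4.2e-08), while the 50 nearest genes had medians of 0.13 in both. Mad2l1, the checkpoint protein MAD2, fell in the same genotypes (-0.74 and -0.79), where its nearest genes were lower too (medians -0.47 and -0.36). Cdc20, the APC/C activator that the checkpoint holds back, was lower than WT in all 3 knockouts, at -0.61 for ACLY KO, -0.46 for ACSS2 KO and -0.55 for DKO1. The call of Cdc20 in ACSS2 KO was lost without WT replicate 2 or without any ACSS2 KO library, with adjusted p up to 0.08.

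Other members of this role split between genotypes. Espl1, the protease separase that cuts cohesin at anaphase, held 2974, 2336, 3145 and 3210 normalized counts in WT, 2876, 3043, 3006 and 2790 in ACLY KO, 2537, 2957 and 2884 in ACSS2 KO, and 2230, 2122 and 1336 in DKO1. All DKO1 libraries were below all others, with a log2 fold change of -0.65 ± 0.16 against WT (adjusted p = 0.0037) and -0.66 ± 0.16 against ACLY KO (adjusted p = 0.0075). Bub1b, the checkpoint protein BUBR1, had the larger fall in DKO1 (-0.66 against WT, adjusted p = 0.00026) than in ACLY KO (-0.27, adjusted p = 0.046, lost in 10 of the 14 fits without 1 library, up to 0.11), with 0.12 in ACSS2 KO, and its interaction was -0.51 ± 0.16 (adjusted p = 0.031, lost in 6 of the 14 fits without 1 library, up to 0.077). Bub1, its partner kinase, was lower in ACSS2 KO than in WT (-0.23, adjusted p = 0.027, lost without WT replicate 3 or 4 or any ACSS2 KO library, up to 0.086) and higher in DKO1 than in ACSS2 KO (0.28 ± 0.073, adjusted p = 0.0057). The 50 genes nearest to Bub1 on chromosome 2 had a median of 0.28 in the latter comparison, which leaves -0.0012 after subtraction.

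Pttg1 encodes securin, the inhibitor of separase, and was the single gene called higher in DKO1 than in WT. It was low throughout, at 307.1, 466.2, 295.3 and 275.3 normalized counts in WT, 407.5, 414.1, 410.5 and 505.6 in ACLY KO, 448.3, 409.5 and 429.5 in ACSS2 KO, and 419.8, 416.7 and 1117 in DKO1. WT replicate 2 lay above most knockout libraries and DKO1 replicate 4 above all. The log2 fold change in DKO1 was 0.82 ± 0.29 (adjusted p = 0.028). That call was lost without DKO1 replicate 4 and without WT replicate 1, 3 or 4, with a fold change from 0.35 to 1.06 and an adjusted p up to 0.088. With neither WT replicate 2 nor DKO1 replicate 4, Pttg1 was higher than WT in all 3 knockouts, at 0.56, 0.55 and 0.52 (adjusted p = 1.7e-05, 1e-04 and 0.00022). Its neighbours on chromosome 11 had medians of 0.36, 0.14 and 0.44 with all libraries.

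In the kinetochore and passenger complex, 5 of 12 genes were called lower in ACLY KO and 5 in DKO1 against WT. ACSS2 KO had 2 of the 12 called higher and 0 lower, beside 15.1% and 11% of all genes. Median log2 fold changes were -0.34 in ACLY KO, -0.28 in DKO1 and -0.12 in ACSS2 KO. The chromosomal passenger complex joins the kinase Aurora B to INCENP, survivin (Birc5) and borealin (Cdca8), and its members moved unequally. Incenp, the scaffold, had the largest fall of the whole list before any subtraction of chromosome or neighbour medians. It lies on chromosome 19, whose 465 tested genes had medians of -0.38 in ACLY KO and -0.53 in DKO1 against WT. It stood at 5722, 5187, 5567 and 5708 normalized counts in WT and at 5070, 5175 and 5146 in ACSS2 KO, against 3000, 3104, 2862 and 3013 in ACLY KO and 2304, 2395 and 2036 in DKO1. Every library without ACLY was below every library with it, and DKO1 was lowest. Against WT the log2 fold change was -0.89 ± 0.06 for ACLY KO (adjusted p = 7e-08) and -1.31 ± 0.064 for DKO1 (adjusted p = 5e-09), with -0.11 in ACSS2 KO (adjusted p = 0.24). DKO1 against ACLY KO had -0.42 ± 0.064 (adjusted p = 0.00041), and the interaction was -0.31 ± 0.091 (adjusted p = 0.024), a call that was lost without ACLY KO replicate 2 or ACSS2 KO replicate 2 or 4 (up to 0.058).

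Aurkb, the kinase of that complex, did not share the fall of Incenp. It held 2718, 2568, 2532 and 2360 normalized counts in WT, 2540, 2559, 2512 and 2693 in ACLY KO, 3076, 2987 and 2936 in ACSS2 KO, and 2253, 2343 and 2590 in DKO1. ACSS2 KO was above every other library, by 0.24 ± 0.065 against WT (adjusted p = 0.015), and the other 3 genotypes overlapped. Without ACSS2 KO replicate 1 the adjusted p was 0.065. DKO1 against ACSS2 KO had -0.33 (adjusted p = 0.0014), and the interaction was -0.35 ± 0.091 (adjusted p = 0.013). Cdca8 was lower both for ACLY KO (-0.43, adjusted p = 0.003) and for DKO1 (-0.49, adjusted p = 0.0019). Birc5 was called nowhere: its DKO1 libraries held 2678, 2752 and 6100 normalized counts against 2783 to 4493 in WT, with replicate 4 far above the others.

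At the kinetochore, the NDC80 complex binds microtubules directly. Its subunit Ndc80 was lower in ACLY KO (-0.58 ± 0.06, adjusted p = 3.5e-06) and DKO1 (-0.62 ± 0.065, adjusted p = 3.9e-06), and had a value of 0.12 in ACSS2 KO (adjusted p = 0.2). Nuf2, its partner, measured 2073, 2129, 2205 and 2217 normalized counts in WT, 1950, 1941, 1946 and 2081 in ACLY KO, 2423, 2364 and 2443 in ACSS2 KO, and 1720, 1701 and 1662 in DKO1. The steps between groups were small but the groups were nearly or fully apart, with 0.16 ± 0.051 in ACSS2 KO (adjusted p = 0.033), -0.12 for ACLY KO (adjusted p = 0.045) and -0.35 for DKO1 (adjusted p = 7.3e-05). The interaction of Nuf2 was -0.38 ± 0.072 (adjusted p = 0.0015). Its ACSS2 KO call was lost in 5 and its ACLY KO call in 10 of the 14 fits without 1 library (up to 0.12 for ACSS2 KO), and the 50 nearest genes had a median of 0.22 in ACSS2 KO, which turns the value to -0.061. The remaining subunits Spc24 and Spc25, with values of -0.50 and 0.16 in DKO1 against WT, had no call in the main fit. Without WT replicate 2 and DKO1 replicate 4, both were called lower in ACLY KO against WT. In that setting Spc24 was also called lower in DKO1 against WT, and Spc25 higher in DKO1 against ACLY KO. Cenpf, a long transcript, had -1.01 ± 0.18 in DKO1 against WT (adjusted p = 0.00041) and -0.55 against ACLY KO (adjusted p = 0.041); without DKO1 replicate 4 the latter was -0.28 and not called. Cenpe, the kinetochore motor, held 8420, 7894 and 4331 normalized counts in DKO1 and 4506 to 5125 in ACSS2 KO against 5958 to 7418 in WT. It had no call in the main fit, with -0.49 in ACSS2 KO (adjusted p = 0.066). Without DKO1 replicate 4, Cenpe was called higher in DKO1 than in each other genotype, and lower in ACSS2 KO than in WT. A correction for transcript length gave the same calls. Knl1, at 0.13 in ACLY KO, ranged from 1966 to 4270 within WT alone.

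Kinesins were the role with the highest share of calls in ACLY KO. Of 10 kinesins, 8 were called lower for ACLY KO, 1 for ACSS2 KO and 9 for DKO1 against WT, with medians of -0.39, -0.098 and -0.61. Against ACLY KO, 2 were lower in DKO1 and 1 was higher. Kif11 encodes Eg5, the motor that pushes spindle poles apart. It stood at 8550, 7572, 9451 and 9538 normalized counts in WT, 8181, 8630 and 8574 in ACSS2 KO, 4948, 5049, 5068 and 4661 in ACLY KO, and 4103, 4056 and 2956 in DKO1. WT and ACSS2 KO overlapped and lay well above ACLY KO, which lay above DKO1. The fold changes were -0.83 ± 0.10 in ACLY KO (adjusted p = 2e-05), -0.05 in ACSS2 KO (adjusted p = 0.81), -1.25 ± 0.11 in DKO1 (adjusted p = 8.7e-07) and -0.43 ± 0.11 in DKO1 against ACLY KO (adjusted p = 0.012). Kif20b, another motor of late mitosis, was close to this at -0.82 in ACLY KO and -1.18 in DKO1. Both genes lie on chromosome 19, whose tested genes had medians of -0.38 in ACLY KO and -0.53 in DKO1 against WT.

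Kif23, the MKLP1 motor of the central spindle, was lower in each knockout and again in DKO1 against each single knockout. Its libraries held 5266, 5286, 5447 and 5245 normalized counts in WT, 3692, 3927, 3617 and 3629 in ACLY KO, 3886, 3931 and 3861 in ACSS2 KO, and 2964, 2991 and 2696 in DKO1. ACLY KO and ACSS2 KO overlapped with each other and with no other group. Log2 fold changes against WT were -0.52 ± 0.051, -0.45 ± 0.054 and -0.88 ± 0.054 (adjusted p = 2.2e-06, 5.4e-05 and 3.4e-08), with an interaction of 0.08 (adjusted p = 0.46) and neighbour medians of 0.05, 0.00 and 0.11. Kif18a had the smallest change of the kinesins in ACLY KO (-0.23, adjusted p = 0.0034). Kif14 was called lower in DKO1 (-0.67, adjusted p = 0.029) and had 0.13 in ACSS2 KO (adjusted p = 0.75), and the DKO1 call was lost without DKO1 replicate 4 (-0.31) or without WT replicate 1, 3 or 4. Kif4, the chromokinesin, was the exception: 3116, 2932 and 2007 normalized counts in DKO1 against 2030, 2120, 2108 and 2059 in ACLY KO gave 0.34 ± 0.12 (adjusted p = 0.049). Of the 14 fits without 1 library, 12 lost this call (up to 0.16), while without DKO1 replicate 4 it was 0.54 (adjusted p = 3.2e-05). Kif4 lies on chromosome X, and its 50 nearest genes had a median of 0.38, which leaves -0.040.

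The spindle-associated and cytokinesis genes had 4 of 7 called lower for ACLY KO, 1 for ACSS2 KO and 6 for DKO1 against WT, with medians of -0.25, -0.18 and -0.43. Nusap1, a spindle protein that bundles microtubules, was the one gene of the list with DKO1 called between ACLY KO and WT. It measured 2583, 2692, 2748 and 2599 normalized counts in WT, 1690, 1808, 1773 and 1807 in ACLY KO, 2842, 2731 and 3014 in ACSS2 KO, and 2115, 2159 and 2100 in DKO1. ACLY KO was lowest and DKO1 next, each apart from the rest, and WT and ACSS2 KO overlapped. Its fold change was -0.59 ± 0.05 in ACLY KO (adjusted p = 5.9e-07), -0.32 in DKO1 (adjusted p = 0.00022) and 0.26 ± 0.054 in DKO1 against ACLY KO (adjusted p = 0.0028), beside neighbour medians of 0.12, 0.25 and 0.19. In ACSS2 KO it was 0.11 (adjusted p = 0.17).

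Gtse1, a microtubule-associated protein of G2 and mitosis, showed the opposite arrangement, with the change in DKO1. Its values were 1801, 1666, 1868 and 1864 normalized counts in WT, 1671, 1838, 1767 and 1848 in ACLY KO, 1646, 1633 and 1682 in ACSS2 KO, and 1145, 1163 and 954.1 in DKO1. Only the DKO1 libraries stood apart. The log2 fold change was -0.73 ± 0.075 against WT (adjusted p = 3.4e-06) and -0.72 ± 0.075 against ACLY KO (adjusted p = 2e-05), and the interaction of -0.60 ± 0.11 (adjusted p = 0.0012) was the furthest from 0 of those called. Prc1, which bundles the central spindle, fell in ACLY KO (-0.50, adjusted p = 0.00087) and DKO1 (-0.83, adjusted p = 2.2e-05). Ect2, the exchange factor that activates RhoA for cytokinesis, was lower in all 3 knockouts, and in ACSS2 KO (-0.45, adjusted p = 0.013) the call was lost without replicate 1 of that group (adjusted p = 0.055). Hmmr, at 0.04 in ACLY KO, had no call.

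Chromosome and nuclear structure had the lowest medians, at -0.51 in ACLY KO and -0.81 in DKO1 against WT, with 5 and 7 of 8 genes called lower, 3 in ACSS2 KO (median -0.14) and 5 in DKO1 against ACLY KO. Top2a, the topoisomerase that untangles chromosomes, was the highest of the 60 per kilobase of transcript in WT, at 4295 normalized counts per kilobase. It stood at 22322, 19126, 24298 and 23945 normalized counts in WT and 23982, 25879 and 25744 in ACSS2 KO, against 15825, 15694, 16170 and 14385 in ACLY KO and 13853, 13405 and 8766.5 in DKO1. The cells without ACLY lay below the rest, and DKO1 below ACLY KO. Fold changes were -0.53 ± 0.13 in ACLY KO (adjusted p = 0.004), 0.17 in ACSS2 KO (adjusted p = 0.41), -0.92 ± 0.14 in DKO1 (adjusted p = 8.8e-05) and -0.40 ± 0.14 in DKO1 against ACLY KO (adjusted p = 0.048). The last of these was lost in 11 and the interaction of -0.57 (adjusted p = 0.046) in 10 of the 14 fits without 1 library, with -0.19 for DKO1 against ACLY KO without DKO1 replicate 4.

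Condensin I compacts chromosomes through Smc2, Smc4 and its own subunits Ncapd2, Ncapg and Ncaph, and these subunits differed. Ncapd2 fell from 7856 to 8662 normalized counts in WT to 4822 to 5052 in ACLY KO and 3173 to 4277 in DKO1, at -0.77 ± 0.082 and -1.14 ± 0.088 (adjusted p = 4.5e-06 and 2.3e-07), beside neighbour medians of 0.05 and 0.07. Ncapg, in the same complex, had -0.06 and -0.15 and no call, and Ncaph was lower in DKO1 (-0.30, adjusted p = 0.0034) with -0.06 in ACLY KO and an interaction of -0.32 (adjusted p = 0.035, lost in 9 of the 14 fits without 1 library). Smc4 was lower in all 3 knockouts, at -0.72, -0.51 and -0.84 (adjusted p = 4.7e-07, 7.3e-05 and 2.3e-07), less in DKO1 than the single falls add up to (interaction 0.39 ± 0.091, adjusted p = 0.0065), beside neighbours at -0.29, -0.30 and -0.28. Tmpo, a protein of the nuclear lamina, had log2 fold changes of -0.68 ± 0.051 in DKO1 against WT (adjusted p = 2e-07) and -0.31 against ACLY KO (adjusted p = 0.00075). Mki67, the proliferation marker Ki-67, held 15952, 10756, 19041 and 19022 normalized counts in WT, 11625, 12157, 12325 and 9309 in ACLY KO, 12647, 15376 and 14998 in ACSS2 KO, and 12026, 10910 and 6006 in DKO1. WT replicate 2 lay among the knockouts. Its log2 fold change was -0.48 ± 0.22 for ACLY KO (adjusted p = 0.088) and -0.77 ± 0.24 for DKO1 (adjusted p = 0.015), and -0.67 and -0.65 without WT replicate 2 and DKO1 replicate 4 (adjusted p = 2.8e-05 and 2e-04). Without DKO1 replicate 4 alone, the DKO1 value was -0.46 and its adjusted p 0.054.

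Whole chromosomes were shifted between these clonal lines, so the fold changes of neighbouring genes are given beside those of the list. The 3 largest falls of the list in DKO1 before subtraction, Incenp (chr19:9872295-9899489), Kif11 (chr19:37376382-37421863) and Kif20b (chr19:34922335-34975750, all GRCm38), are on chromosome 19. Its 465 tested genes had a median log2 fold change of -0.53 in DKO1 and -0.38 in ACLY KO against WT, and the 50 genes nearest to each of the 3 had medians of -0.68, -0.61 and -0.67 in DKO1. After subtraction of the neighbours' median, 57 of the 60 genes had values below 0 in ACLY KO and 57 in DKO1 against WT, the 42 genes called lower in DKO1 among them. The list's median was then -0.33 in ACLY KO and -0.54 in DKO1. In DKO1 against ACLY KO, the pair on chromosome 15 that led the falls, Gtse1 (chr15:85859691-85876573) and Espl1 (chr15:102296254-102324357), had neighbour medians of -0.30 and -0.10. The part of these shifts in the results was not tested.

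**Figure D4:**
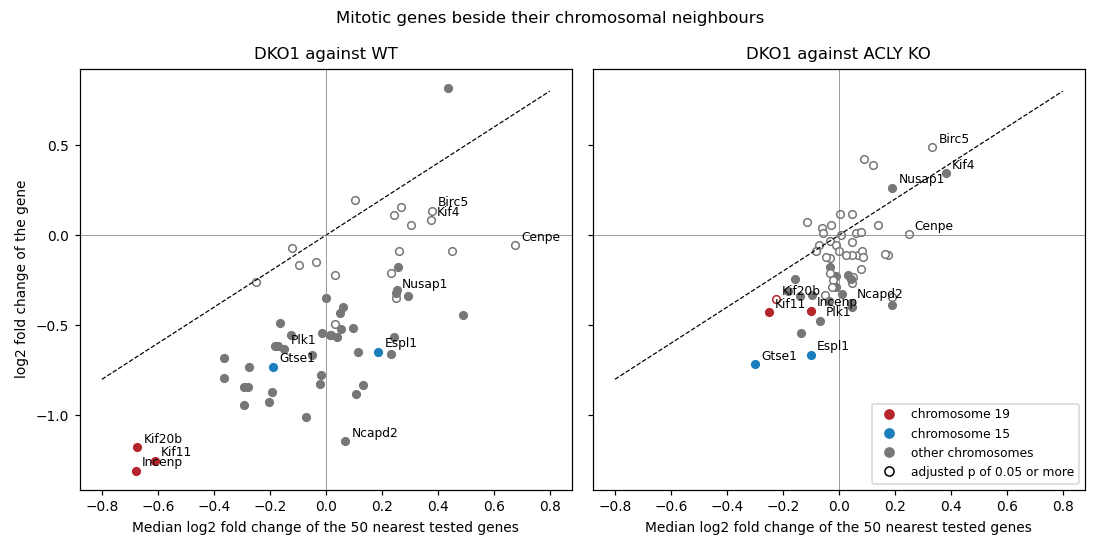
Log2 fold change of each of the 60 mitotic genes (vertical axis) against the median log2 fold change of its 50 nearest tested genes (horizontal axis), in DKO1 against WT and DKO1 against ACLY KO; the dashed line marks equal values and filled points had an adjusted p under 0.05. In DKO1 against WT, 57 of the 60 points lie below the line, and the 3 genes of chromosome 19 lie at the lower left and below it.

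Over all 60 genes, 11 had a called interaction, where the change that goes with ACSS2 loss differed between ACLY KO and WT cells: 9 lay below 0, against 15.1% of all genes, and 2 above, against 12%. With equal library totals, which put the median of all genes at -0.16, 11 were below 0 and 0 above. Those below 0 in the first fit were Wee1, Plk1, Bub1b, Aurkb, Incenp, Nuf2, Gtse1, Top2a and Ncaph, and those above were Ccna2 and Smc4. Ccna2 and Smc4 lie on chromosome 3, whose 633 tested genes had a median interaction of 0.26. The part of the chromosome in these calls was not tested. The median interaction of the list was 0.033. The count below 0 was thus close to the share over all genes and the count above 0 was under it. Without WT replicate 2 and DKO1 replicate 4, 30 genes were called, 14 below 0 and 16 above. The share over all genes was not counted in that setting.

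The calls were also counted by the CHR core, as a description with no test. In DKO1 against WT, 24 of 35 genes with the core were called lower, and 11 of 15 without it, with medians of -0.57 and -0.35. In ACLY KO the counts were 20 of 35 and 9 of 15, with medians of -0.37 and -0.23. Among genes with the core, Kif11 had one of the largest falls and Cdk1 no call in the main fit. Ccnb1 and Plk4, which were lower in each knockout, had no core in these windows.

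Other mitotic genes, a list of 97, had more lower than higher calls. In ACLY KO against WT 41 were called lower and 2 higher (median -0.21), the lower calls being 42.3% of the list beside 24.7% of all genes. In DKO1 against WT there were 49 and 5 (median -0.31), with 50.5% lower beside 28.1%, and in DKO1 against ACLY KO 21 and 6 (median -0.15), with 21.6% lower beside 13.6%. In ACSS2 KO against WT there were 9 and 2 (median -0.073), and the 9.28% called lower was under the 11% of all genes. Cohesin and condensin II genes, which hold and shape sister chromatids, had 13 of 14 lower in DKO1 against WT and 1, Smc1a, higher (0.25, adjusted p = 0.046). Among them Cdca5, which encodes the cohesin protector sororin, had -0.74 for ACLY KO (adjusted p = 8.1e-08) and -1.08 for DKO1 (adjusted p = 6.8e-09), and Ncaph2 of condensin II had -0.69 in DKO1 against ACLY KO (adjusted p = 4.2e-05). The 14 subunits of the APC/C differed from this, with 2 lower and 1 higher in DKO1 (median 0.026). Cdc16 was lower (-0.64, adjusted p = 1.8e-05), Anapc16 higher (0.73, adjusted p = 0.0065), and Cdc27 was higher in ACLY KO against WT (0.51, adjusted p = 0.016) and lower in DKO1 against ACLY KO (-0.52, adjusted p = 0.039). Of the APC/C regulators, the inhibitor Fbxo5 was lower in ACLY KO (-0.58, adjusted p = 0.0013) and DKO1 (-0.77, adjusted p = 0.00025).

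In the constitutive centromere network, 5 of 13 genes were lower and 2 higher in DKO1 against WT, beside 28.1% and 27.9% of all genes. Cenpu was lower in ACLY KO (-0.70, adjusted p = 7e-07), and Cenpi was higher in DKO1 against ACLY KO (0.69, adjusted p = 7.8e-06), as was Cenpp (0.83, adjusted p = 0.00085). Of the outer kinetochore and MIS12 genes, Ska3 and Zw10 were lower in DKO1 against WT (-0.55 and -0.44, adjusted p = 1.2e-05 and 8.9e-05), and of the CENP-A loading genes Oip5 was lower in ACLY KO (-0.53, adjusted p = 0.0013). The CDK-binding subunit Cks2 fell in ACLY KO (-0.99, adjusted p = 8.5e-06) and was above ACLY KO in DKO1 (0.68, adjusted p = 0.0011), while the kinase Melk was lower in both (-0.36 and -0.69 against WT). Haspin was higher in ACLY KO (0.39, adjusted p = 0.0024). Of the other spindle genes Psrc1 had the largest fall in DKO1, at -1.36 (adjusted p = 3.8e-08) with -0.99 in ACLY KO, and Cep55, of abscission, had -1.05 and -0.82. Depdc1a went the other way between genotypes, at 0.18 for DKO1 (adjusted p = 0.016) and -0.66 for ACSS2 KO (adjusted p = 3.1e-06). The B-Myb gene Mybl2 was lower in all 3 knockouts, at -0.59, -0.39 and -0.69 (adjusted p = 1.2e-06, 0.00032 and 6.6e-07).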

How the data were processed

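Poly(A) RNA of 14 libraries was sequenced by the authors as single-end reads of 75 bases on a NextSeq 500 from strand-specific (NEBNext Ultra Directional) libraries and aligned with STAR to GRCm38 (mm10). The deposited values are a normalized signal: gene counts that the authors scaled between libraries with DESeq2, version 1.0.1 of the Illumina application per the labels. They are not whole reads: the low values of each library fell on multiples of 1 value in 21.7% to 57.3% of cases, so no count test was run and depth in reads is not known.

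Values were taken as log2(normalized count + 1), so that fold changes of low genes are understated. Genes with a mean of at least 10 were kept (12711 of 24972, 5487 of which were at 0 in every library among those left out). limma 3.58.1 in R 4.3.3, with a trend of the variance on the mean, was fitted with 1 coefficient per genotype to all 14 libraries, which share the estimate of the spread; p-values are two-sided and Benjamini-Hochberg adjusted over all genes, and a call means adjusted p under 0.05. The interaction is DKO1 minus ACLY KO minus ACSS2 KO plus WT. The fit was tested on simulated data with known changes. Groups came from the labels. No library was a copy of another, the highest correlation between 2 libraries being 0.994. The 60 genes, the lists and the alternatives were chosen with earlier results of these data known. Named genes were the core genes Cdk1, Ccnb1, Plk1, Aurka, Aurkb, Foxm1, Mki67 and Top2a, the 5 smallest adjusted p of each comparison, the extremes of each role, calls against the majority, the interaction calls and, of the other mitotic genes, the leading 2 of each role; a few more were named as examples after their values were seen. Transcript lengths came from GENCODE vM21, gene positions from RefSeq, and promoters from RefSeq GRCm38.p6. The alternatives were a replicate block, a length correction, other scalings, filters, limits and added constants, leaving out libraries, and subtraction of chromosome or neighbour medians.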

Additional observations from a re-analysis of the deposited data

Results flagged for a closer look

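In groups of 4 libraries, 9 of 120 gene and group combinations had 1 library whose gap to the nearest other, over the group's range, was above Dixon's limit at the 95% level, where chance gives about 1 in 20. Of these, 5 were WT replicate 2, with 9438.5 normalized counts of Cdk1, 466.17 of Pttg1, 4730.4 of Cenpa, 2858.4 of Spc25 and 7856.1 of Ncapd2, the last being the lowest of its group and the others the highest. The other 4 were ACLY KO replicate 4, with 505.61 of Pttg1, 1997.6 of Cdca8 and 2081.4 of Nuf2 as the highest and 4574.7 of Cenpf as the lowest. In both libraries the deviations fell with transcript length (correlations of -0.62 and -0.60 across genes), and the part of length in each value was not tested.

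The change that went with ACSS2 loss differed between ACLY KO cells and WT cells for 11 genes by limma's interaction. In log2 units it was -0.60 for Gtse1, -0.57 for Top2a, -0.51 for Bub1b, -0.38 for Nuf2, -0.36 for Plk1, -0.35 for Aurkb, -0.32 for Ncaph, -0.31 for Wee1 and -0.31 for Incenp, and it was 0.39 for Smc4 and 0.32 for Ccna2. Over all genes, 15.1% had a called interaction below 0 and 12% above. Smc4 and Ccna2 lie on chromosome 3, whose tested genes had a median interaction of 0.26.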

How the results depend on the processing

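In the 3 comparisons against WT, lower calls were the majority under the alternatives run, except where no gene was called. The direction of the interaction calls did not hold, from 9 below 0 and 2 above in the main fit. The interaction had 14 below and 15 above with the length correction, and 9 and 11 without DKO1 replicate 4. Without WT replicate 2 and DKO1 replicate 4 it had 14 and 16. Counts moved most in ACSS2 KO against WT (16 called) and in the interaction (11). ACSS2 KO against WT had 10 calls with a replicate block or quantile normalization, 9 with equal library totals and 7 at an adjusted p under 0.01. It had 31 with the length correction, 29 with both block and length correction, 42 without WT replicate 2 and DKO1 replicate 4, and 43 without the 4 libraries of negative length relation; the last 2 settings were chosen after seeing the data. The interaction had 29, 28, 30 and 29 calls under those 4 settings in that order, and 3 at adjusted p under 0.01. DKO1 against ACLY KO (22 called) had 12 at adjusted p under 0.01 and 8 when only the groups compared were fitted, a fit with fewer samples; the interaction could not be fitted so, since it uses all groups. With an absolute log2 fold change over 1.5 and adjusted p under 0.01, each of the 6 comparisons had 0 calls. Unless stated, the cause was not tested.

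Leaving out 1 library at a time gave 30 to 49 calls in ACLY KO against WT, 8 (without ACSS2 KO replicate 1) to 29 (without DKO1 replicate 4) in ACSS2 KO against WT, 40 to 48 in DKO1 against WT, 14 (without ACLY KO replicate 2) to 23 in DKO1 against ACLY KO, 32 to 41 in DKO1 against ACSS2 KO, and 5 (without ACSS2 KO replicate 2) to 20 (without DKO1 replicate 4) in the interaction. Signs turned for Tmpo in ACSS2 KO against WT with quantile normalization (0.0088), for Ccnb1 in ACLY KO against WT (0.048), Nuf2 in ACSS2 KO against WT (-0.017) and Bub1 in DKO1 against ACSS2 KO (-0.045) after subtraction of the chromosome median, and for Nuf2 (-0.061), Kif4 in DKO1 against ACLY KO (-0.040) and Bub1 (-0.0012) after subtraction of the neighbours' median. Equal library totals moved the median of all genes to 0.10 for ACLY KO, 0.11 for ACSS2 KO and 0.069 for DKO1 against WT, beside list medians of -0.22, -0.036 and -0.48. Over 18 pairs of libraries with the same replicate number, deviations correlated between -0.43 and 0.45, and 5 pairs were above 0.1, so the numbers were not taken as a pairing, and the block is given only as above.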
